A study of Rattus norvegicus with 9 samples.

Results

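Macrophage and lymphocyte transcripts were followed in rat left ventricle: 43 genes chosen by name as markers, receptors and signals of macrophages, T cells, B cells and cytotoxic cells. A gene was kept when its mean over all 9 libraries was at least 1 CPM (estimated counts relative to a library total of 1000000). For this rule and the means in this paragraph, library totals were used unscaled. All later CPM values follow scaling of library totals by edgeR's TMM method. The rule held for 38 of the 43 listed genes, of 22608 genes in the whole series. Cd3d, Cd79a, Cd79b and Gzma were below that level, with means of 0.63, 0.492, 0.639 and 0.272 CPM, and Ccr2 was not analysed here. No B cell gene on the list was therefore kept.

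All groups were Sprague-Dawley rats with an age given as 8 weeks plus 28 days, each with 3 libraries. The Ang II+NaBu group received angiotensin II (Ang II) together with sodium butyrate (NaBu), the Ang II group received Ang II, and the saline group received neither. Infusion of Ang II, a vasoconstrictor peptide, makes rodents hypertensive and scars their hearts. Butyrate is made by gut bacteria and blocks histone deacetylases, enzymes that close chromatin. The labels give no dose or route, and no group with NaBu alone was analysed here. Nor do they say whether each library is a different animal, so p-values measure only the spread between these samples, which may be technical. Whole tissue was sequenced, so fewer cells of a type and less RNA per cell cannot be told apart.

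The normal heart holds resident macrophages, many of which carry the mannose receptor Mrc1, the scavenger receptor Cd163 and the folate receptor Folr2 and depend on signalling through Csf1r, the receptor for colony-stimulating factor. Monocytes recruited from blood add to them after injury. T cells are sparse in healthy myocardium; they are recognised by the Cd3 chains of the T cell receptor complex and by the kinases Lck and Zap70, which act directly downstream of it. In rats, as in humans, macrophages and monocytes also carry Cd4, so this gene does not mark T cells alone.

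Libraries held between 29284780 and 49865446 estimated counts, and the 38 genes together took between 847 and 1080 CPM per library. The 14 cardiomyocyte markers were present in each library, with summed levels from 128000 to 189000 CPM. Saline replicate 2 was lowest of the 9 libraries for 13 of these 14 markers and highest for all 10 atrial markers. The atrial markers summed to 6040 CPM there, 361 CPM in saline replicate 3 and 111 to 260 CPM in the others. Among them, the hormone gene Nppa had 3460 CPM in saline replicate 2, 186 CPM in saline replicate 3 and at most 80.6 CPM elsewhere. Myl7 had 789, 27.2 and at most 3.98 CPM in that order. Saline replicate 2 was also highest for 13 of the 38 immune genes and lowest for 0. For some genes and lists, values without it, or without saline replicates 2 and 3, are given as well. Saline replicate 3 was highest for 7 of 15 fibroblast markers, and saline replicate 2 for 8.

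Promoters of 5 of the 38 genes are shown first, and short motifs can be counted in them. They were picked because 4 of them, all macrophage genes, had similar fold changes with Ang II, none of them called. Other macrophage genes, such as Cd14 and Cd163 with log2 fold changes of -0.39 each, were similar too and are not shown. Shared regulation was not tested. RefSeq's table for the GRCr8 build held 30 of the 38 genes, and the 250 bases before the start that this table uses were searched. For Csf1r and Ptprc, 227 and 64 of these bases lie inside the gene as RefSeq annotates it, so for Csf1r the stretch is mostly within the gene. The letters GAGGAA form the core of the purine-rich sites that the myeloid factor PU.1 and other ETS proteins bind. Read on either strand, they occurred in 16 of these 30 promoters (53.3%), against 23.3% of all 33469 promoters of the same length. The longer motif GAGGAAGT, which contains the shorter one, occurred in 1 of the 30, TGACTCA in 2, TATAAA in 2 and CACGTG in 0, against 2.04%, 4.05%, 12.9% and 5.59% of all promoters. Such matches describe letters and do not show binding. In the sequences below, capitals mark GAGGAA or its reverse complement TTCCTC. The stretches lie at chr18:56834129-56834378 (plus strand) for Csf1r, chr17:82157475-82157724 (plus strand) for Mrc1, chr5:154407828-154408077 (minus strand) for C1qb, chr5:154419934-154420183 (minus strand) for C1qa and chr13:52259747-52259996 (minus strand) for Ptprc.
Csf1r: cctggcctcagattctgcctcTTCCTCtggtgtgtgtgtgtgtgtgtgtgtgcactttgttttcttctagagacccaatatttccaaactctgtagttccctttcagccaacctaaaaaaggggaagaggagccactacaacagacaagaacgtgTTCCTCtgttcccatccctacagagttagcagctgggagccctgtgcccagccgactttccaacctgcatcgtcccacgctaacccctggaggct
Mrc1: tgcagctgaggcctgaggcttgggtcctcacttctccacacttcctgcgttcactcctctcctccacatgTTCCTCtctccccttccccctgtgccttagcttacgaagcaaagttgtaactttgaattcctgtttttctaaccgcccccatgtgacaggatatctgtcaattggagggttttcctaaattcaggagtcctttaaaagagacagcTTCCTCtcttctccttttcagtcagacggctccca
C1qb: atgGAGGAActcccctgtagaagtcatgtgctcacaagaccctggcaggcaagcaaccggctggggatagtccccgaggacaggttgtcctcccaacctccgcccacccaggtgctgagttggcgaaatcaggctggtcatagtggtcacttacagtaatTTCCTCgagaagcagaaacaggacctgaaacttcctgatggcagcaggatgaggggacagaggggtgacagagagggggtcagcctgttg
C1qa: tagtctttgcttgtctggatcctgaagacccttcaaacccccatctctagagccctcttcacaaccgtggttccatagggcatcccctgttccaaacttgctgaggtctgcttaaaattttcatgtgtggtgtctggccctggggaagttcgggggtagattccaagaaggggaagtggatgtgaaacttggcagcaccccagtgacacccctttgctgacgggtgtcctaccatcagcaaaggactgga
Ptprc: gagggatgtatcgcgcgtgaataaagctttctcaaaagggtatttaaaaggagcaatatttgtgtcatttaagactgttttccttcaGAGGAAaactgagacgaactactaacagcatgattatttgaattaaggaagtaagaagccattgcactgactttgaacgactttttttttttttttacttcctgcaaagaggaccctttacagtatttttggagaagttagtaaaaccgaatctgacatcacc
The first 4 belong to macrophage genes, and Ptprc encodes CD45, the phosphatase on the surface of leukocytes. Csf1r, Mrc1 and C1qb had 2 matches each, Ptprc 1 and C1qa 0. The genes C1qa, C1qc and C1qb lie in that order on chromosome 5 of the same build, with 2877 bases between the first pair and 3017 between the second. They encode the 3 chains of C1q, which starts the classical complement pathway.

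No immune gene of the 38 passed the test in any of the 3 comparisons (edgeR's quasi-likelihood test, adjusted p under 0.05 over 15467 genes), and none of those that DESeq2 gave an adjusted p passed with DESeq2. These were 27 of the 38 for Ang II+NaBu against Ang II, all 38 for Ang II against saline and 35 for Ang II+NaBu against saline; Cd3e, Cd8a, Ccl2 and Cx3cr1 were among the 11 without one in the first. Of all genes with an adjusted p, DESeq2 called 13.1%, 0.347% and 15.1% in the 3 comparisons in that order. The smallest adjusted p among the 38 was 0.165 for Ang II+NaBu against Ang II, 0.713 for Ang II against saline and 0.116 for Ang II+NaBu against saline. Fold changes are given on the log2 scale. The 95% interval lay within a change of 1 on that scale, in either direction, for 28, 29 and 30 of the 38 genes in the 3 comparisons in that order. A p that misses the threshold does not show that levels were alike, and the interval gives the sizes that remain possible.

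**Figure D1:**
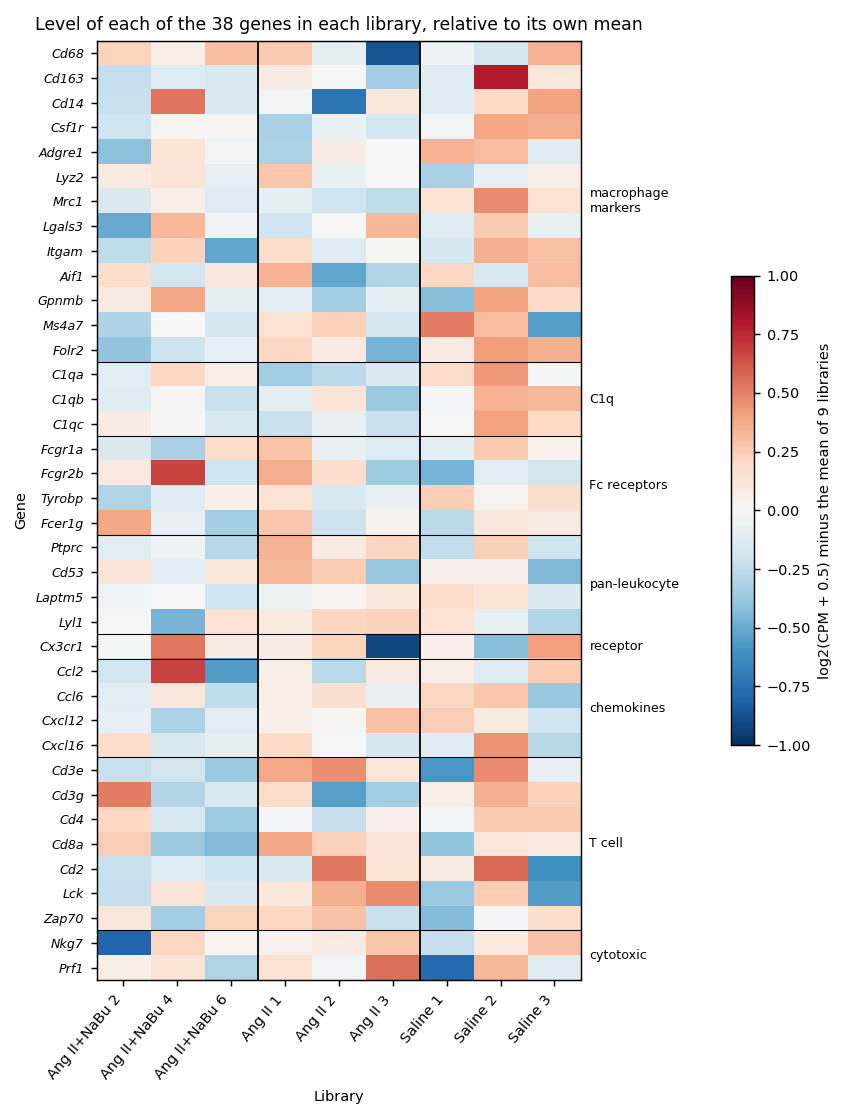
Level of each of the 38 genes (rows, grouped by role) in each of the 9 libraries (columns; Ang II+NaBu, Ang II, saline), as log2(CPM + 0.5) minus the gene's mean over the 9 libraries. Saline replicate 2 holds the highest value of 13 genes, among them Cd163 at 79.7 CPM.

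Sodium butyrate given with Ang II was compared with Ang II alone, which asks what butyrate changed in the treated heart. Of the 38 immune genes, 0 passed the test, against 1.6% of all genes tested (248 of 15467). At an unadjusted p under 0.05 there was 1, Ptprc, or 2.63% of the 38, against 22.4% of all genes. The 3 libraries of each group did not overlap for 5 genes (13.2%), against 35.6% of all genes. Of the 38, 12 had a positive and 26 a negative log2 fold change, with a median of -0.074 against -0.025 over all genes, of which 47.3% were positive.

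Ptprc had 51.0, 52.9 and 45.0 CPM in the Ang II+NaBu libraries, against 69.4, 58.5 and 63.8 CPM in the Ang II libraries. Each Ang II+NaBu library lay below each Ang II library. The log2 fold change was -0.36 (SE 0.14, adjusted p = 0.165), which did not pass the threshold in the fit of all 3 groups. The adjusted p was 0.0432 when only these groups were fitted and 0.0469 without saline replicates 2 and 3, and over 18 alternative settings it ranged from 0.0432 to 0.765. The saline libraries had 46.2, 64.9 and 47.7 CPM and spanned the ranges of both other groups in part. The other 3 genes carried by leukocytes in general were Cd53, a tetraspanin, Laptm5, a lysosomal protein of blood cells, and Lyl1, a transcription factor of blood progenitors. Their log2 fold changes were -0.053, -0.12 and -0.31, with overlap between the groups for each.

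T cell and cytotoxic genes were mostly lower in Ang II+NaBu, without a call. Of the 9 kept, 8 had a negative log2 fold change (median -0.34), and 0 passed. Cd3e, a chain of the T cell receptor complex, had 1.42, 1.47 and 1.23 CPM in Ang II+NaBu libraries, against 2.41, 2.58 and 1.92 CPM in Ang II libraries. The groups did not overlap, and the log2 fold change was -0.75 (SE 0.38, adjusted p = 0.275). The gene rested on 33 to 98 estimated counts per library. Lck had 4.16, 5.47 and 4.43 CPM in Ang II+NaBu libraries, against 5.36, 6.47 and 7.07 CPM in Ang II libraries. Here 1 Ang II+NaBu library lay above the lowest Ang II library, and the log2 fold change was -0.43 (SE 0.26, adjusted p = 0.356). Cd8a, which cytotoxic T cells carry, had 3.12, 1.86 and 1.77 CPM in Ang II+NaBu libraries, against 3.49, 3.08 and 2.84 CPM in Ang II libraries, and overlapped. The pore-forming perforin gene Prf1 and the granule gene Nkg7 had log2 fold changes of -0.32 and -0.34, with overlap. The exception in sign was Cd3g, another chain of the complex, at 0.40 (SE 0.49). Cd3d, which was below the level of inclusion, had 0.328, 0.183 and 0.0832 CPM in Ang II+NaBu libraries, against 0.753, 1.42 and 1.39 CPM in Ang II libraries. It rested on 4 to 60 estimated counts per library. Cd79a, Cd79b and Gzma, also below that level, had means of 0.437, 0.377 and 0.331 CPM in Ang II+NaBu libraries. Their means in Ang II libraries were 0.453, 0.551 and 0.154 CPM, so Gzma went the other way.

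Another 37 tested lymphocyte genes that are not among the 38 were counted too: 34 had a negative log2 fold change (median -0.35), and 0 passed with edgeR. An unadjusted p under 0.05 was found for 4 (10.8%), against 22.4% of all genes. DESeq2 gave an adjusted p for 12 of the 37 and called 2 (16.7%), against 13.1% of all genes. In each library, the median of these 37 genes relative to their 9-library means was -0.14, -0.067 and -0.011 in Ang II+NaBu, 0.22, 0.24 and 0.28 in Ang II, and -0.10, 0.12 and -0.21 in saline. The Ang II libraries were thus highest, and the Ang II+NaBu libraries lay within the saline range. Values of markers of other cells in the same comparison follow, with 1 of 10 platelet, 1 of 13 endothelial, 0 of 12 erythroid and 0 of 14 cardiomyocyte markers called. All 10 platelet markers were lower in Ang II+NaBu (median log2 fold change -1.75), and Itga2b, the platelet integrin chain, passed. Their summed levels were 16.7 to 22.2 CPM in Ang II+NaBu, 31.4 to 68.1 CPM in Ang II and 25.3 to 42.4 CPM in saline libraries. Ppbp was at 0 in the 3 Ang II+NaBu libraries and in saline replicates 1 and 3, and at most 0.602 CPM elsewhere. Of 12 erythroid markers, 11 were lower, with summed levels of 2450 to 3070 CPM in Ang II+NaBu, 2730 to 4750 CPM in Ang II and 2040 to 2890 CPM in saline libraries, and none at 0 throughout. All 13 endothelial markers were lower (Egfl7, a secreted vascular protein, passed), with summed levels of 1910 to 2240 CPM in Ang II+NaBu, 2300 to 2620 CPM in Ang II and 2250 to 2590 CPM in saline libraries. Of 14 cardiomyocyte markers, 13 were higher, with summed levels of 175000 to 189000 CPM in Ang II+NaBu, 155000 to 165000 CPM in Ang II and 128000 to 185000 CPM in saline libraries. Their part in the lymphocyte result was not tested.

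**Figure D2:**
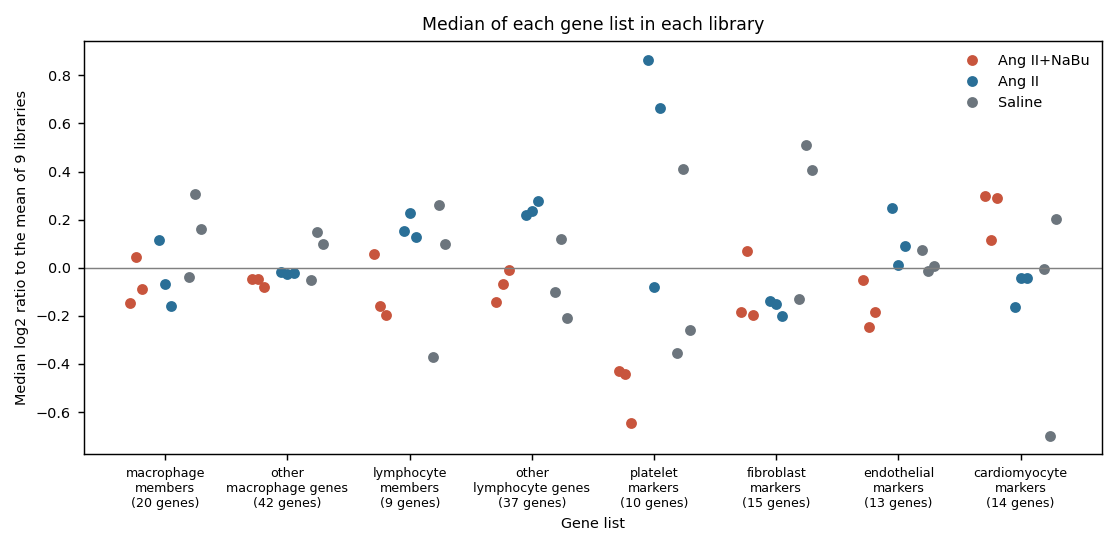
Median log2 ratio of each gene list to its mean over the 9 libraries (vertical axis), with 1 point per library, coloured by group. For the 37 other lymphocyte genes the Ang II libraries sit between 0.22 and 0.28 and the Ang II+NaBu libraries between -0.14 and -0.011; for fibroblast markers 2 saline libraries stand above the rest.

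Macrophage genes showed no common direction with butyrate: of 20 macrophage markers, C1q chains and Fc receptor genes, 9 had a positive and 11 a negative log2 fold change (median -0.011). Of 42 other macrophage genes tested, 18 were positive and 24 negative (median -0.090), and 0 passed with edgeR, against 1.6% of all genes. With edgeR's unadjusted p under 0.05, 5 were higher and 2 lower (16.7%), against 22.4% of all genes. The groups did not overlap for 40.5% of them, against 35.6% of all genes. C1qa had 16.2, 20.3 and 18.4 CPM in Ang II+NaBu libraries, against 13.7, 14.6 and 15.8 CPM in Ang II libraries. Each Ang II+NaBu library lay above each Ang II library, and the log2 fold change was 0.31 (SE 0.14, adjusted p = 0.226). C1qc and C1qb overlapped, with log2 fold changes of 0.14 and -0.0068. Gpnmb, a lysosomal glycoprotein of activated macrophages, had 14.3, 17.7 and 12.5 CPM in Ang II+NaBu libraries, against 12.4, 10.5 and 12.5 CPM in Ang II libraries. It was without overlap by a margin smaller than the printed digits, with a log2 fold change of 0.33 (SE 0.22, adjusted p = 0.399), or 0.18 (adjusted p = 0.725) without Ang II+NaBu replicate 4. Csf1r, Mrc1 and Cd163 had log2 fold changes of 0.14, 0.11 and -0.10, each under its error or close to it. Lyz2, the lysozyme of macrophages, had 129, 133 and 115 CPM in Ang II+NaBu libraries, against 147, 116 and 121 CPM in Ang II libraries, with overlap.

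Among the chemokine genes, Cxcl12, which stromal and endothelial cells make and which draws lymphocytes and progenitor cells through Cxcr4, had 292, 248 and 287 CPM in Ang II+NaBu libraries, against 321, 313 and 380 CPM in Ang II libraries. Each Ang II+NaBu library lay below each Ang II library, and the log2 fold change was -0.30 (SE 0.13, adjusted p = 0.229), or -0.18 (adjusted p = 0.551) without Ang II replicate 3. The saline libraries had 366, 330 and 270 CPM and overlapped both groups. Ccl2, which recruits monocytes, had 2.49, 4.92 and 1.81 CPM in Ang II+NaBu libraries, against 3.04, 2.32 and 3.12 CPM in Ang II libraries. Its highest and its lowest value both came from Ang II+NaBu libraries. The macrophage chemokine Ccl6 and the scavenger chemokine Cxcl16 had log2 fold changes of -0.14 and -0.033, with overlap. Cx3cr1, the fractalkine receptor of resident macrophages and monocytes, had 1.15, 1.91 and 1.27 CPM in Ang II+NaBu libraries, against 1.26, 1.45 and 0.393 CPM in Ang II libraries, on 17 to 73 estimated counts per library over the 9.

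Ang II was compared with saline, which asks what the hormone alone changed after 28 days. No gene of the 38 passed, against 0% of all 15467 genes; an unadjusted p under 0.05 was found for 4 of the 38 (10.5%), against 5.94% of all genes, and DESeq2 called 0 of the 38. The groups did not overlap for 5 genes (13.2%), against 9.9% of all genes. Of the 38, 15 had a positive and 23 a negative log2 fold change, with a median of -0.076 against -0.0045 over all genes, of which 49% were positive. The median of the 38 was -0.0073 without saline replicate 2 (20 negative), -0.0042 without Ang II replicate 3 (19 negative) and 0.0055 without saline replicates 2 and 3 (19 negative). The balance differed by role: 16 of 20 macrophage genes were negative (median -0.27) and 7 of 9 T cell and cytotoxic genes positive (median 0.21), none of them called.

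Mrc1 had 52.3, 48.4 and 46.6 CPM in Ang II libraries, against 61.2, 77.2 and 61.6 CPM in saline libraries. Each Ang II library lay below each saline library, and the log2 fold change was -0.44 (SE 0.12, adjusted p = 0.713). Csf1r had 39.3, 47.2 and 43.7 CPM in Ang II libraries, against 48.5, 64.5 and 63.6 CPM in saline libraries. It did not overlap either, although saline replicate 1 stood close to the Ang II libraries, and the log2 fold change was -0.44 (SE 0.13, adjusted p = 0.74). Without saline replicate 2, the log2 fold changes were -0.33 for Mrc1 and -0.37 for Csf1r, and without saline replicates 2 and 3 they were -0.32 and -0.16.

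All 3 C1q chains had a lower mean with Ang II, without a call. C1qa had 13.7, 14.6 and 15.8 CPM in Ang II libraries, against 20.0, 23.8 and 17.4 CPM in saline libraries, with a log2 fold change of -0.47 (SE 0.14, adjusted p = 0.74). C1qc had 24.7, 27.6 and 24.7 CPM in Ang II libraries, against 28.9, 38.3 and 33.3 CPM in saline libraries, with a log2 fold change of -0.38 (SE 0.12, adjusted p = 0.743). Neither overlapped. C1qb had 15.8, 18.5 and 12.9 CPM in Ang II libraries, against 16.7, 21.6 and 21.2 CPM in saline libraries, and overlapped, with a log2 fold change of -0.33 (SE 0.16, adjusted p = 0.854). Saline replicate 2 was highest of all 9 libraries for each of the 3 chains. Without that library, the log2 fold changes were -0.35 for C1qa, -0.28 for C1qc and -0.27 for C1qb. Without saline replicates 2 and 3, they were -0.44, -0.17 and -0.088.

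Among the other macrophage genes, Cd163 had 48.7, 45.9 and 36.2 CPM in Ang II libraries, against 41.9, 79.7 and 49.3 CPM in saline libraries. The saline mean of 57.0 ± 20.0 CPM (SD, n = 3) rested on saline replicate 2, and without it the log2 fold change was -0.070. Cd68, the lysosomal marker, had 7.14, 5.46 and 3.00 CPM in Ang II libraries, against 5.64, 5.11 and 7.59 CPM in saline libraries, and Adgre1, which encodes F4/80, had 10.5, 13.9 and 13.2 CPM in Ang II libraries, against 16.9, 16.4 and 12.1 CPM in saline libraries. Both overlapped. The macrophage genes with a positive value were Lyz2, Lgals3, which encodes galectin-3, Fcer1g, a signalling chain of Fc receptors, and Fcgr2b, the inhibitory Fc receptor, with log2 fold changes of 0.18, 0.030, 0.065 and 0.41.

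Lower macrophage values stood beside lower fibroblast values, and both depended on the saline libraries. All 15 fibroblast markers had a negative log2 fold change with Ang II (median -0.45, none called), with summed levels of 4190 to 4450 CPM in Ang II libraries, against 4240 to 6690 CPM in saline libraries, and none at 0 in all libraries. The summed level of the 20 macrophage genes was 437, 402 and 389 CPM in Ang II libraries, against 403, 528 and 473 CPM in saline libraries, so saline replicate 1 lay among the Ang II libraries for both lists. Without saline replicate 2, the macrophage median was -0.23 (15 of 20 negative) and the fibroblast median -0.33 (11 of 15 negative). Without saline replicates 2 and 3, they were -0.11 (12 of 20) and -0.032 (9 of 15). The part of other cell types in the macrophage result was not tested. Of 42 other macrophage genes tested, 26 had a negative log2 fold change (median -0.19; 0 called). An unadjusted p under 0.05 was found for 8 (19.0%), against 5.94% of all genes: 6 were lower and 2 higher with Ang II. Without saline replicates 2 and 3, the number of negative values was 21 (median 0.033).

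T cell genes were on the whole higher with Ang II, within the spread. Cd8a had 3.49, 3.08 and 2.84 CPM in Ang II libraries, against 1.83, 2.82 and 2.77 CPM in saline libraries. The groups did not overlap by a narrow margin, the log2 fold change was 0.34 (SE 0.31, adjusted p = 0.951), and it turned to -0.42 when the highest transcript stood for the gene. It was 0.17 without saline replicate 1 and 0.78 without saline replicates 2 and 3. Lck had 5.36, 6.47 and 7.07 CPM in Ang II libraries, against 3.72, 6.01 and 3.20 CPM in saline libraries, and overlapped through saline replicate 2, with a log2 fold change of 0.55 (SE 0.26, adjusted p = 0.854). Cd3e had 2.41, 2.58 and 1.92 CPM in Ang II libraries, against 0.990, 2.61 and 1.62 CPM in saline libraries, where saline replicate 2 again lay above all Ang II libraries. Cd2, an adhesion receptor, Zap70, Prf1 and Nkg7 had log2 fold changes of 0.12, 0.21, 0.43 and 0.093, with overlap. The exceptions in sign were Cd3g and Cd4, at -0.62 (SE 0.49) and -0.23 (SE 0.16). Without saline replicate 2, the log2 fold changes of Lck, Cd3e, Prf1 and Cd2 were 0.86, 0.82, 0.80 and 0.49. Those of Cd8a, Zap70 and Nkg7 were then 0.445, 0.24 and 0.11, and those of Cd3g and Cd4 -0.52 and -0.19. Of the 37 other lymphocyte genes, 29 had a positive log2 fold change (median 0.33), 0 passed with edgeR or DESeq2, and 4 (10.8%) had an unadjusted p under 0.05, against 5.94% of all genes. Platelet markers were positive for 8 of 10 and erythroid markers for 12 of 12 in this comparison, none called, and their part was not tested.

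**Figure D3:**
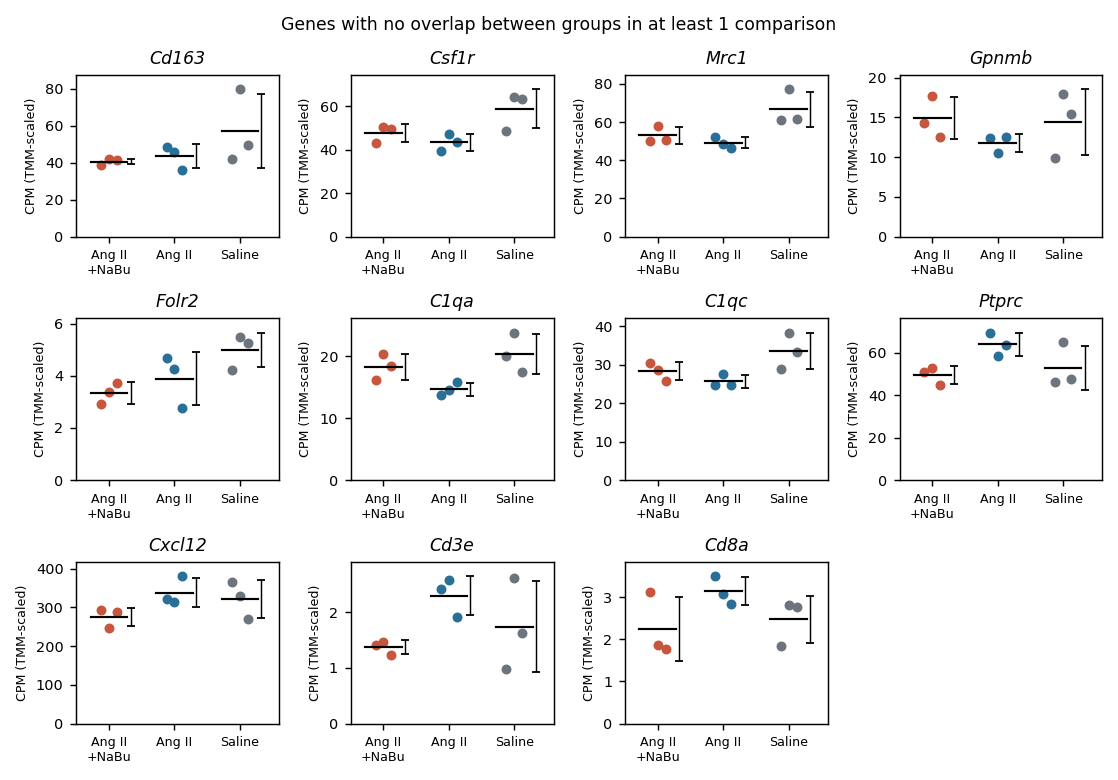
CPM of the 11 genes whose groups did not overlap in at least 1 comparison, with 1 point per library, a line at the group mean and a bar of 1 SD (n = 3), each axis from 0. The 3 Ang II+NaBu points of Cd163 lie between 38.8 and 41.8 CPM, while its saline points spread between 41.9 and 79.7 CPM.

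Ang II+NaBu was compared with saline, which sets the combined treatment against untreated hearts. Again 0 of the 38 genes passed, against 5.06% of all genes (782 of 15467), and DESeq2 called 0 of the 35 with an adjusted p. An unadjusted p under 0.05 was found for 4 (10.5%), against 24.6% of all genes, and 3 (7.89%) did not overlap, against 28.6% of all genes. The 3 were Cd163, Folr2 and Mrc1, all lower in Ang II+NaBu. Other macrophage genes, among them Csf1r, Adgre1 and the C1q chains, overlapped, and the share without overlap was below that of all genes. Of the 38, 11 had a positive and 27 a negative log2 fold change, with a median of -0.15 against -0.051 over all genes, of which 44.7% were positive. Both this comparison and the one of Ang II share the saline libraries, and the values of each are given side by side without an overlap of the lists.

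Mrc1 had 50.2, 58.1 and 50.7 CPM in Ang II+NaBu libraries, against 61.2, 77.2 and 61.6 CPM in saline libraries, with a log2 fold change of -0.33 (SE 0.12, adjusted p = 0.116). Folr2 had 2.90, 3.38 and 3.73 CPM in Ang II+NaBu libraries, against 4.23, 5.48 and 5.24 CPM in saline libraries, with a log2 fold change of -0.58 (SE 0.25, adjusted p = 0.181). For both genes, each Ang II+NaBu library lay below each saline library. Cd163 had 38.8, 41.8 and 41.3 CPM in Ang II+NaBu libraries, against 41.9, 79.7 and 49.3 CPM in saline libraries. Saline replicate 1 was above the highest Ang II+NaBu library by the last digit printed. The log2 fold change of -0.49 (SE 0.21, adjusted p = 0.186) was -0.15 without saline replicate 2 and -0.045 without saline replicates 2 and 3. For Folr2 and Mrc1 the values were -0.49 and -0.20 without saline replicate 2, and -0.34 and -0.21 without both.

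Of 42 other macrophage genes tested, 2 passed the test in this comparison (4.76%), a share near the 5.06% of all genes, so it says nothing particular of macrophage genes. Stab1, the scavenger receptor stabilin-1 of resident macrophages and of some endothelium, fell to 71.5, 81.6 and 70.0 CPM in Ang II+NaBu libraries, with 88.9, 90.7 and 92.5 CPM in Ang II libraries and 107, 99.9 and 105 CPM in saline libraries. None of the 3 groups overlapped with another, and the log2 fold change against saline was -0.48 (SE 0.090, adjusted p = 0.0241). Mertk, the receptor tyrosine kinase with which macrophages take up dying cells, fell to 7.82, 6.50 and 7.37 CPM in Ang II+NaBu libraries, with 8.82, 9.61 and 10.1 CPM in Ang II libraries and 9.90, 13.4 and 13.3 CPM in saline libraries. Its log2 fold change was -0.75 (SE 0.16, adjusted p = 0.0323), and each Ang II+NaBu library lay below each library of both other groups. The calls were sensitive to the setting: Stab1 passed in 10 of 18 alternatives (adjusted p from 9.95e-05 to 0.524) and Mertk in 9 of 18 (from 0.00242 to 0.25), with a negative log2 fold change in each. Without saline replicates 2 and 3, the adjusted p was 0.0687 for Stab1 and 0.25 for Mertk, and the log2 fold change of Mertk was -0.45. Both calls ended with the 2 groups alone and with the highest transcript per gene. Leaving out Ang II+NaBu replicate 2 or 6 or Ang II replicate 2 or 3 ended both calls, leaving out saline replicate 1 that of Stab1, and leaving out Ang II+NaBu replicate 4 or saline replicate 2 that of Mertk. Of the 42 genes, 30 had a negative log2 fold change (median -0.17). All 13 endothelial markers were also lower in Ang II+NaBu than in saline (median log2 fold change -0.16). Of these, 1 passed, Egfl7 (7.69%, against 5.06% of all genes). Their part in the result for Stab1 was not tested.

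The remaining macrophage genes were mixed. Of the 20 kept, 15 had a negative log2 fold change (median -0.21, and -0.026 without saline replicates 2 and 3). Csf1r had 42.9, 50.4 and 49.7 CPM in Ang II+NaBu libraries, against 48.5, 64.5 and 63.6 CPM in saline libraries, and overlapped through saline replicate 1. Tyrobp, the adaptor DAP12 that carries signals of many myeloid receptors, had 6.51, 7.46 and 8.43 CPM in Ang II+NaBu libraries, against 9.72, 8.33 and 9.28 CPM in saline libraries, with overlap. All 15 fibroblast markers had a negative log2 fold change here too (median -0.41, and 0.099 without saline replicates 2 and 3), with summed levels of 4060 to 4930 CPM in Ang II+NaBu libraries, against 4240 to 6690 CPM in saline libraries; their part was not tested. For the 9 T cell and cytotoxic genes, 6 log2 fold changes were negative and 3 positive, from -0.34 for Cd3e to 0.12 for Lck. Of the 37 other lymphocyte genes, 18 were positive and 19 negative (median -0.0024), and 0 passed with edgeR. With edgeR's unadjusted p under 0.05, 1 was higher and 5 were lower (16.2%), against 24.6% of all genes. DESeq2 gave an adjusted p for 24 of the 37 and called 3 (12.5%), against 15.1% of all genes.

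**Figure D4:**
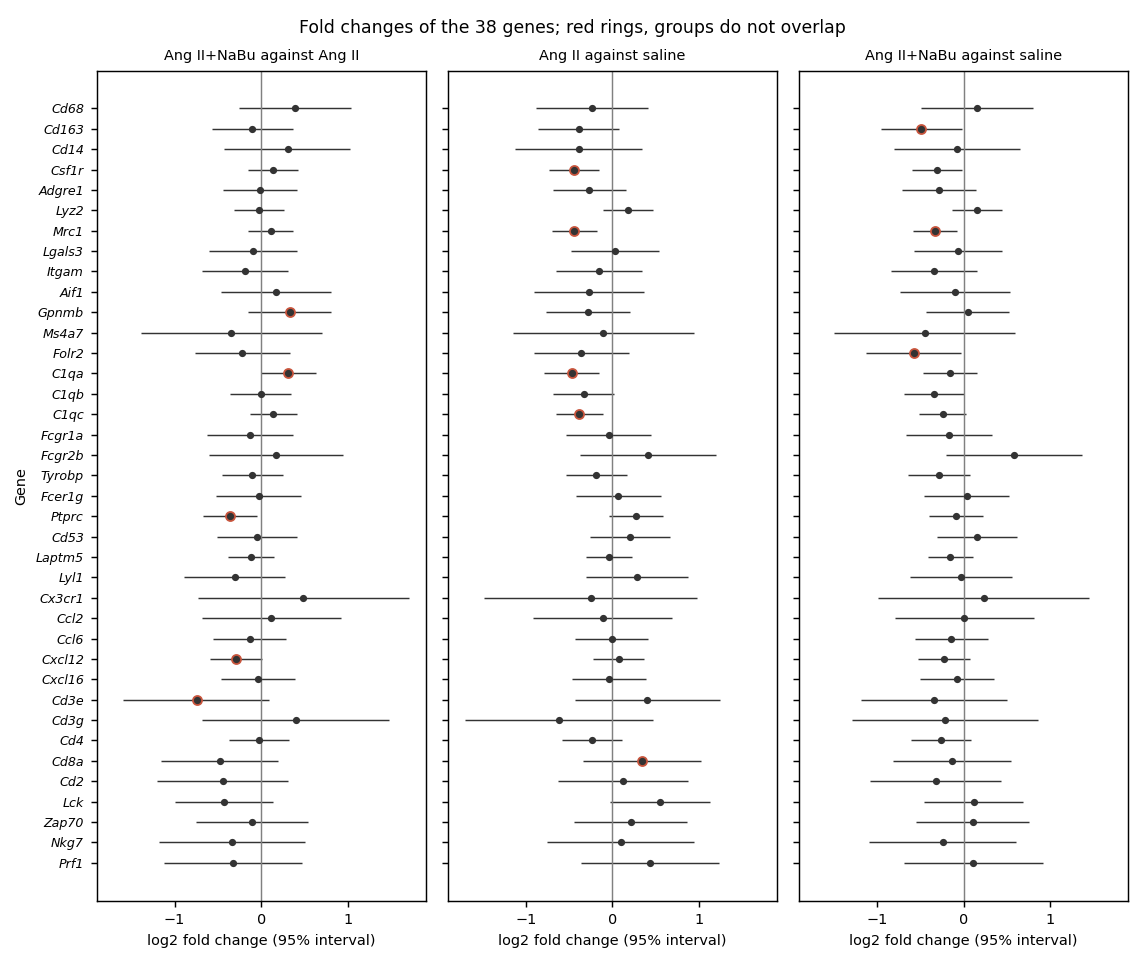
Log2 fold change (point) and 95% interval (line) of each of the 38 genes in the 3 comparisons, with red rings where the 3 libraries of one group all lay above or below those of the other. Rings stand at 5, 5 and 3 genes from the left panel to the right, and the intervals of Cx3cr1, Cd3g and Ms4a7, genes of about 1 CPM, are among the widest.

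The deposited tables list transcripts, and their split within a gene was less steady than the gene sums. Of the 38 genes, 20 had several listed transcripts, and in 13 of them the transcript with the largest share differed between libraries. Cd8a had its whole estimated count on 1 of 3 transcripts in each library, and not the same one: a predicted transcript held 100% in Ang II+NaBu 2, Ang II 1 and saline replicates 1 and 2 and 0% in the other 5. For Cd4, the transcript largest over all libraries held 5.18%, 0% and 70.9% in Ang II+NaBu libraries, 0%, 64.2% and 71.0% in Ang II libraries, and 0%, 75.8% and 78.6% in saline libraries. For Cd163 it held 9.31%, 65.3% and 70.7% in Ang II+NaBu libraries, 77.2%, 80.3% and 67.3% in Ang II libraries, and 19.3%, 79.4% and 0% in saline libraries. Replicates of 1 group thus differed as much as groups did. The gene sums of Cd4 and Cd163 differed by at most 1.55-fold and 2.20-fold between any libraries.

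In the other 7 genes with several transcripts, 1 transcript led in every library. It held 83.5% to 90.2% of Cxcl12, 95.2% to 100% of Csf1r, 92.5% to 100% of Cd3e and 45.6% to 93.3% of Ptprc. Exons of Ptprc are spliced in different ways in naive and activated T cells and in B cells, and 8 of its transcripts were listed. Its leading transcript held 60.8%, 89.6% and 45.6% in Ang II+NaBu libraries, 67.2%, 74.0% and 49.4% in Ang II libraries and 93.3%, 53.9% and 65.2% in saline libraries, so the ranges of the groups overlapped. The fold changes above rest on the sums over all transcripts of a gene.

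**Figure D5:**
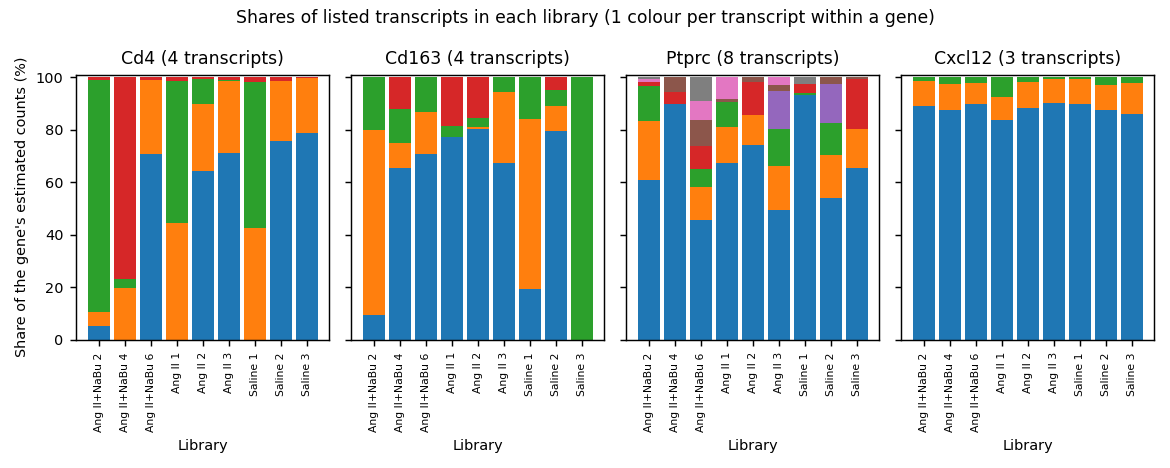
Share of a gene's estimated counts (percent) on each listed transcript of Cd4, Cd163, Ptprc and Cxcl12, with 1 stacked bar per library and 1 colour per transcript within a gene. The split differs between replicates of 1 group for Cd4 and Cd163, while the leading Cxcl12 transcript stays between 83.5% and 90.2%.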

How the data were processed

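RNA was made from rat left ventricle and sequenced as Illumina libraries, 3 per group, per the labels. Estimated counts per transcript were deposited by the authors in a separate table for each group, per the file headers; those of the saline table are the same kind of value, read after removing a stray line end. Per the submitters' processing notes, Bowtie 0.12.2 and the build mm8 were used. The IDs are of rat RefSeq transcripts, although mm8 is a mouse build. Neither counting tool nor strand use is given in the sources used here; reads shared by paralogs or overlapping genes are uncertain. In each library more transcripts had values of 4 or 5 than of 6 or 7; what 1 fragment was worth is not given. Each table holds 1 group, so a processing difference between tables and a group difference cannot be told apart. The Ang II+NaBu columns are numbered 2, 4 and 6, and are named so.

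Values of 55767 transcripts were summed to 22608 gene names. All 9 libraries were fitted together with edgeR 4.0.16 in R 4.3.3 (TMM factors from 0.887 to 1.14, filterByExpr, quasi-likelihood test, Benjamini-Hochberg adjustment over 15467 genes). A gene was called at an adjusted p under 0.05. Fold changes use a prior count of 0.125 and carry a standard error (SE). DESeq2 1.42.0 was an alternative, with other scalings, no filter on low counts, 2-group fits, values divided by 4, the highest transcript per gene, a replicate block and libraries left out. The scripts were tested on simulated data. The common biological coefficient of variation was 0.256. The members and the lists of other genes were chosen with earlier results of these data known. Any of the 38 genes could be named, with values in every library for those without overlap or highest in their role, and of the other lists the called genes and up to 2 at each end. Cd3d, below the level of inclusion, and some further genes with values in every library were named after their values were seen.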

Additional observations from a re-analysis of the deposited data

How the results depend on the processing

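Across the alternatives, 0 of the 38 genes was called in each comparison, with an exception for Ang II+NaBu against Ang II: 1 gene, Ptprc, was called when only the 2 groups were fitted and without saline replicates 2 and 3. The median of the 38 in that comparison was -0.18 with total count scaling, which moved the median of all genes to -0.13, and ranged from -0.11 to 0.00545 when 1 library was left out. For Ang II+NaBu against saline it was 0.016 without saline replicates 2 and 3 and ranged from -0.207 to -0.0323 when 1 library was left out, with -0.032 without saline replicate 2. For Ang II against saline it ranged from -0.136 to -0.00417 when 1 library was left out. Total count scaling moved the median of all genes to -0.11 for Ang II+NaBu against saline.

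The number of all genes called was far less stable. For Ang II+NaBu against Ang II (248) it was 4 with total count scaling, 1544 with DESeq2, 1802 with the 2 groups alone, 5 with the highest transcript, 1695 without saline replicates 2 and 3, and 1 to 1482 with 1 library left out. For Ang II against saline (0) it was 60 with DESeq2, 1 with the 2 groups, 3 with the highest transcript, 11 without saline replicates 2 and 3, and 0 to 7 with 1 library left out. For Ang II+NaBu against saline (782) it was 411, 1994, 9, 20, 109 and 6 to 1303 under those settings, total count scaling first. The causes were not tested. The value for Cd8a in Ang II against saline reversed to -0.42 with the highest transcript; its transcripts trade places between libraries.

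Same-numbered Ang II and saline libraries did not deviate together (r = -0.05, -0.056 and -0.014 for numbers 1, 2 and 3). With 3 libraries per group, differences of single libraries could hide a weak shared effect. Whether the numbers pair samples was therefore not settled. With the replicate block, Ang II against saline gave 0 genes called, 0 of the 38, and a median of -0.042. No block could be fitted for Ang II+NaBu, which shares only the number 2 with the other groups. Cx3cr1, at 17 to 73 estimated counts per library, had an SE of 0.55 on the log2 scale, the largest of the 38 in these comparisons.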

Other observations

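Genes at the ends of the wider immune lists, none of them called, add detail on complement and chemokines. Cfp, which encodes properdin, the stabiliser of the alternative complement pathway, had 3.26, 8.04 and 5.56 CPM in Ang II+NaBu libraries, against 10.6, 9.70 and 11.1 CPM in Ang II libraries, without overlap (log2 fold change -0.90, SE 0.29, edgeR adjusted p = 0.115). Cxcl11, an interferon-induced chemokine that draws T cells, had 19.2, 18.1 and 22.8 CPM in Ang II+NaBu libraries, against 7.86, 13.9 and 11.0 CPM in Ang II libraries (log2 fold change 0.88, SE 0.39, edgeR adjusted p = 0.215). It was thus higher in each Ang II+NaBu library, whereas Cd3e was lower in each.

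Foxp3, the factor of regulatory T cells, had 1.83, 2.33 and 3.12 CPM in Ang II+NaBu libraries, 5.66, 3.72 and 4.39 CPM in Ang II libraries, and 5.25, 3.78 and 4.78 CPM in saline libraries. The Ang II+NaBu libraries lay below all others (log2 fold change against saline -0.92, SE 0.27, edgeR adjusted p = 0.0735). Nos2, the inducible nitric oxide synthase, had 1.40, 2.41 and 1.39 CPM in Ang II+NaBu libraries, against 0.151, 0.145 and 0.277 CPM in Ang II libraries, while saline replicate 2 had 2.53 CPM and the other saline libraries 0 and 0.231 CPM. Of 13 neutrophil markers, 7 were tested, and Camp, Ctsg, Ltf and Prtn3 were at 0 in all libraries. Il6 and Retnla were at 0 in all libraries too.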
